A study of Mus musculus with 42 samples.

Results

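Whole blood of 3-month-old 3xTg-AD mice was set against whole blood of 3-month-old C57BL/6 mice, all under sham stimulation. Of the 42 mice sequenced, 6 belong to this comparison: AW, AV and AX (3xTg-AD, spelled 3xTG-AD in the sample labels) and A2, I and AS (C57BL/6), named as the columns of the count table name them. Per the study's methods the 3xTg-AD mice were males that carried human mutant genes, among them MAPT with P301L and APP with the Swedish mutation. Their background is a C57BL/6;129 hybrid, so the strains differ in background as well as in transgenes, and the parts of these factors in a difference cannot be told apart here. The C57BL/6 mice carry no transgene, and their sex is not stated in the sources used here. All 6 mice had an epicranial electrode over the hippocampus and went through the sessions without current, and each was a separate animal. Per the study, translation of the transgenes appears to be limited to the central nervous system.

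RNA of mouse whole blood comes mostly from reticulocytes, platelets and leukocytes. Inbred strains are known to differ in the blood levels of many transcripts, and a hybrid background holds haplotypes of both parent strains. The libraries of this study start at the poly-A tail, so the reads of a gene fall near its 3′ end, and a gene with a near-identical copy elsewhere in the genome can share reads with it.

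The libraries held 16784874 to 22611413 counted reads. One of them stood apart before any comparison was made. In AS, 9 haemoglobin genes took 16.6% of the reads, against 37.2% and 37.3% in the other C57BL/6 mice and 40.9% to 45.9% in the 3xTg-AD mice. AS also had fewer genes with a read (12717 against 13657 to 14582) and a larger TMM factor (1.87 against 0.738 to 1.09). The log2 levels of AS correlated with those of A2 and I at 0.850 and 0.854 over 9743 genes, while A2 and I correlated at 0.946 and the 3xTg-AD mice among themselves at 0.952 to 0.956. Summed over 12 immediate early genes, AS had 1374 CPM (counts of a gene scaled to a common library size after TMM over the 6 mice), and the other mice had 190 to 223 CPM. Counts of calls are therefore also given without AS. Alpha haemoglobin took 22.4% of the reads of A2 but 2.12% and 4.91% of those of I and AS, with 29.3% to 29.6% in each 3xTg-AD mouse. All 6 libraries had reads of the Y-linked genes Ddx3y (17.02 to 28.2 CPM) and Eif2s3y (4.95 to 11.1 CPM), and Xist was between 0 and 0.253 CPM.

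With all 6 mice, 58 of 15544 genes (0.373%) differed between the strains at an adjusted p under 0.05 in edgeR's quasi-likelihood test with Benjamini-Hochberg adjustment. Of these, 27 (0.174%) were higher and 31 (0.199%) lower in 3xTg-AD mice. In each of the 58, the 3 mice of one strain lay above the 3 mice of the other. The same was seen in 2986 of all 15544 genes, which is 19.2%, so the absence of overlap is no property of the called genes. At an unadjusted p under 0.05, 1918 genes differed. The count depended on single libraries. Without AS, 657 of 15524 genes (4.23%) were called, 246 of them higher (1.58%) and 411 lower (2.65%), and all 58 were among them. Without AW, AV, AX, A2 or I, the counts were 18, 20, 20, 47 and 29. In every one of these 6 fits 16 genes were called, and 19 of the 58 were called in no such fit but the one without AS.

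The most extreme genes were read in one strain and not in the other. By a limit of at most 3 reads in each mouse of one strain and at least 30 reads in each mouse of the other, 9 genes (0.0579% of those tested) were on in 3xTg-AD blood only, namely Npy, Gdpd3, Klk1b22, BC018473, Cttnbp2, Cygb, Gm13149, Cxcl14 and Plekha6. On in C57BL/6 blood only were 2 genes (0.0129%), Cib3 and Gm34084. Of the 11, Plekha6 alone was not called (30, 35 and 31 reads in AW, AV and AX and none in the C57BL/6 mice, adjusted p = 0.0719 by edgeR). The bases just before an annotated transcription start are shown for 5 of them as reference sequence beside genes read in one strain only. These are the protein-coding genes with the most reads in the strain that has them. Each window is the 250 bases before the start in RefSeq on GRCm38.p6, which is the C57BL/6 sequence, written along the strand of the gene. For Gdpd3 the RefSeq start lies 80 bases inside the gene as GENCODE M21 gives it, so its window runs into that gene. Where transcription starts in blood was not tested, so the windows can hold transcribed bases. Capitals mark GGGCGG (GC box) and CCAAT on either strand. TATAAA was also searched on both strands and is absent from these windows. These motifs do not overlap one another. Of 32851 such windows in RefSeq, 32.7% hold GGGCGG, 33.9% CCAAT and 12.4% TATAAA.
Npy, chr6:49822460-49822709, plus strand: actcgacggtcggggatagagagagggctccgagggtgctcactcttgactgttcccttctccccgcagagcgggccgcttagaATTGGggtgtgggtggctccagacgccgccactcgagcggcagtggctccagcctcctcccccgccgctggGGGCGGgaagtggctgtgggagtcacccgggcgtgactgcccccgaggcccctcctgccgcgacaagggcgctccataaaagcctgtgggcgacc
Klk1b22, chr7:44112423-44112672, plus strand: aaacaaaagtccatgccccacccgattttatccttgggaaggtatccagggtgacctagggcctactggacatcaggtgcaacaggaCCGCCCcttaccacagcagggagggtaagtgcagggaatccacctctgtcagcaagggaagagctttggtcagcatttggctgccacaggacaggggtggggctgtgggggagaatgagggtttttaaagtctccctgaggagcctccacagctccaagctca
Gdpd3, chr7:126766164-126766413, plus strand: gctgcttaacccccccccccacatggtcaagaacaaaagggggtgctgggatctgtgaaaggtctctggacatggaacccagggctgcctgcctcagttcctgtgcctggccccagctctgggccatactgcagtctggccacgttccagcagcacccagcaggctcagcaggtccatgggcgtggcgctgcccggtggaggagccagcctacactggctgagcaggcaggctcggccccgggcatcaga
Cttnbp2, chr6:18514870-18515119, minus strand: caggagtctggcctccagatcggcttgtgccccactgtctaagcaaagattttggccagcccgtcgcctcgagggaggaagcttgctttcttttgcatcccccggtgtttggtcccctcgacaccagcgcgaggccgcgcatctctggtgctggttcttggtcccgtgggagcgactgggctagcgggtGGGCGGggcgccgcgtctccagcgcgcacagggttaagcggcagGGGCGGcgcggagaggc
Cib3, chr8:72212838-72213087, minus strand: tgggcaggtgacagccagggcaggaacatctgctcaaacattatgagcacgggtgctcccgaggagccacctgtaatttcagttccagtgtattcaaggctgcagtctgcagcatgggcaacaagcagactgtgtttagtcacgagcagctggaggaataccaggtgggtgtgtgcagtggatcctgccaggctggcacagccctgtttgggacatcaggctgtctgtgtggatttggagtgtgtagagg
Of the 11 genes 8 have a window in the RefSeq set used here. The windows of Plekha6 and Gm34084, not shown, belong to starts inside the gene as GENCODE M21 gives it. Along the chromosome these starts lie 81887 and -24221 bases from the GENCODE start. Of the 8 windows, 3 hold GGGCGG (Npy, Klk1b22 and Cttnbp2) and 1 holds CCAAT (Npy).

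Npy encodes neuropeptide Y, a peptide transmitter of neurons that is also made outside the nervous system. It had 8393 reads in AW, 7502 in AV and 2983 in AX, and none in A2, I and AS. The 3xTg-AD levels were 361, 422 and 179 CPM, with a mean of 321 ± 127 CPM over 3 mice (SD). This mean was at least 2099-fold above the limit of 3 reads per library that a count of 0 allows in C57BL/6 mice (adjusted p = 0.00049 by edgeR). Such limits cover counting error only, and the fitted fold changes of genes without reads in one strain depend on the prior count of the fit and are not quoted. The gene was thus abundant in each mouse of one strain and unread in each of the other. Of the other 7 genes of the neuropeptide Y system that were listed (peptides, receptors and peptidases), Dpp4 alone was in the table, with 4.31 to 16.4 CPM in the 6 mice and no difference that passed the test (log2 fold change -0.26, adjusted p = 0.886 by edgeR).

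Gdpd3, a lysophospholipase D of the glycerophosphodiester phosphodiesterase family, had 1914, 1779 and 2211 reads in AW, AV and AX and none in the C57BL/6 mice. Its mean in 3xTg-AD blood was 105 ± 25.4 CPM (SD), at least 687-fold above that limit (adjusted p = 0.00049 by edgeR). Klk1b22, a serine protease of the tissue kallikrein cluster, had 616, 474 and 504 reads against none. Its levels were even across the 3xTg-AD mice (26.5, 26.7 and 30.2 CPM, at least 182-fold above the limit). Of the 4 kallikreins in the table edgeR called Klk1b22 alone, where 0.174% of all genes rose. Cttnbp2, which encodes a cortactin-binding protein known from neurons, had 287, 278 and 292 reads against none (15.2 ± 2.604 CPM, SD, at least 99.2-fold above the limit, adjusted p = 0.00104 by edgeR). BC018473, annotated as an antisense RNA, had 418, 139 and 488 reads against none. All of these were absent from AS too, whose library was as deep as those of the 3xTg-AD mice, as the limit for choosing them required. With AS left out, 36 genes met the limits (23 on in 3xTg-AD and 13 in C57BL/6 blood).

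Other genes of this kind were low. Cygb, a haem protein of the globin family, had 99, 58 and 44 reads in the 3xTg-AD mice and 1 read in one C57BL/6 mouse. Cxcl14, a chemokine, had 46, 40 and 58 reads against none, and the pseudogene Gm13149 had 64, 64 and 46 reads against 0, 1 and 1. In the other direction, Cib3, a calcium- and integrin-binding protein, had 121, 170 and 171 reads in A2, I and AS and none in the 3xTg-AD mice, at least 47.8-fold lower in 3xTg-AD blood (adjusted p = 0.00712 by edgeR). The long noncoding RNA Gm34084 had 38, 53 and 129 reads in C57BL/6 blood and 1 read in one 3xTg-AD mouse.

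**Figure D1:**
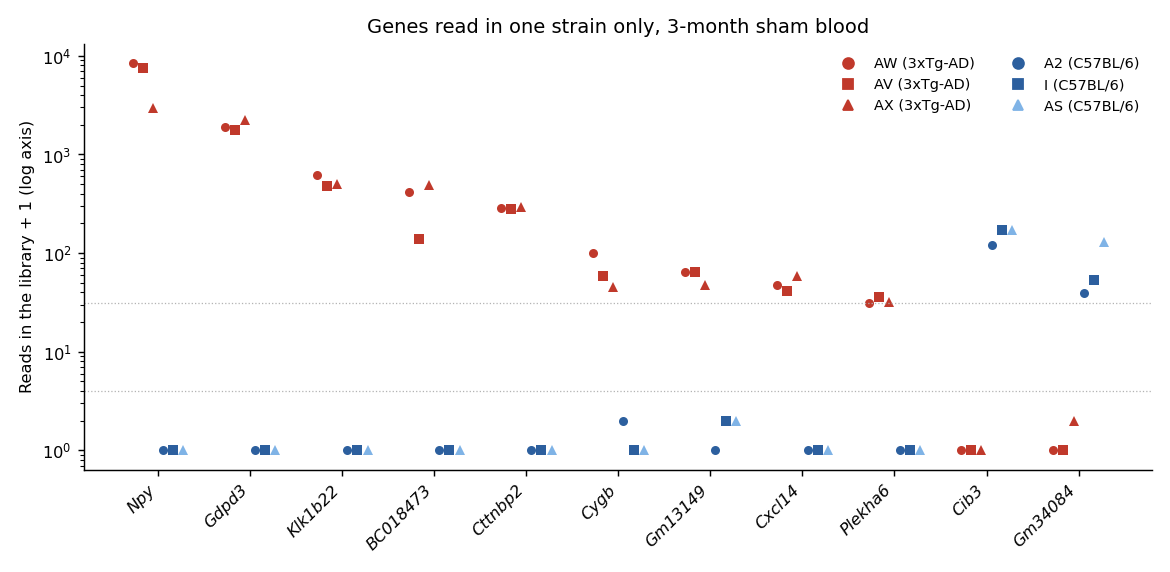
Reads in each of the 6 libraries for the 11 genes read in one strain only, on a log axis after adding 1 read, with 3xTg-AD mice in red and C57BL/6 mice in blue. Dotted lines mark the limits of 3 and 30 reads. The C57BL/6 mouse AS (light blue) sits with A2 and I in each of the 11 genes because the limits required it.

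These 11 genes were then looked up in the other 36 mice of the series (23 3xTg-AD and 13 C57BL/6, all 6 months old, sham or tDCS), which had no part in choosing them. Klk1b22 had at least 30 reads in 23 of 23 3xTg-AD mice (354 reads in the lowest) and no read in 13 of 13 C57BL/6 mice. BC018473 had at least 30 reads in 23 of 23 and at most 1 read in 13 of 13. These patterns held in every mouse. Npy had at least 30 reads in 21 of 23 3xTg-AD mice and at most 2 reads in each of the 13 C57BL/6 mice. The exceptions were the 3xTg-AD mice AM, with 3 reads, and AQ, with none. Gdpd3 and Cttnbp2 had at least 30 reads in each of the 23 3xTg-AD mice (lowest 560 and 141 reads), but in C57BL/6 blood at 6 months they had at most 3 reads in 7 and 4 of the 13 mice and up to 17 and 15 reads in the others. Gm13149 had at least 30 reads in 21 of 23 3xTg-AD mice and at most 3 reads in 11 of 13 C57BL/6 mice, with 6 reads in the highest. Cib3 had at least 30 reads in 13 of 13 C57BL/6 mice and at most 3 reads in 17 of 23 3xTg-AD mice, with 31 reads in the highest. Gm34084 had at least 30 reads in 12 of 13 C57BL/6 mice (8 reads in the lowest) and at most 3 reads in 17 of 23 3xTg-AD mice, with 7 reads in the highest. Cygb, Cxcl14 and Plekha6 did not keep the pattern, since 6, 9 and 4 of the 23 3xTg-AD mice reached 30 reads and C57BL/6 mice reached 52, 23 and 65 reads.

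Among the remaining genes that rose in 3xTg-AD blood, Josd2, a deubiquitinase of the Josephin family, had 154, 199 and 281 CPM in AW, AV and AX and 4.01, 3.93 and 8.14 CPM in A2, I and AS. This is a 39.4-fold difference of means (log2 fold change 5.29 ± 0.46, SE, adjusted p = 0.0011 by edgeR). AA465934, a noncoding transcript, had 24.8 to 34.9 CPM against 1.52 to 1.94 CPM (17.6-fold). Camp, the cathelicidin antimicrobial peptide of neutrophil granules, had 38.0, 27.1 and 85.3 CPM against 2.46, 1.77 and 2.04 CPM (log2 fold change 4.58 ± 0.50, adjusted p = 0.00507 by edgeR). Trdc, the constant region of the T cell receptor delta chain, had 19.6 to 25.0 CPM against 2.07 to 3.48 CPM (7.995-fold). None of these ranges overlapped. Glrx, a glutaredoxin that reduces protein disulfides, had 197 to 311 CPM against 29.4 to 45.5 CPM (6.98-fold). The noncoding RNA 5430431A17Rik had 19.9 to 35.2 CPM against 0.905 to 3.17 CPM. Id3, an inhibitor of basic helix-loop-helix transcription factors, had 32.3, 29.2 and 31.5 CPM against 1.75, 4.24 and 5.18 CPM (8.33-fold, log2 fold change 3.05 ± 0.43, adjusted p = 0.017 by edgeR). Auh (5.52-fold), Tusc1 (5.53-fold), Hist3h2ba (4.69-fold), Hspb6 (9.45-fold) and Chchd10 (4.44-fold) also rose. The small nuclear RNA Gm25939 had 5.86, 4.62 and 1.38 CPM against at most 0.0647 CPM, with 23 or more reads in each 3xTg-AD mouse. The 6 pseudogenes that rose and Hist1h2bp are described with their relatives.

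The genes that fell in 3xTg-AD blood were led by F2rl2, the protease-activated receptor 3, a thrombin receptor of mouse platelets. It had 1.72, 2.87 and 1.56 CPM in AW, AV and AX and 57.4, 85.2 and 66.9 CPM in A2, I and AS, 34.1-fold lower in 3xTg-AD mice (log2 fold change -5.09 ± 0.40, SE, adjusted p = 0.000707 by edgeR). Serpine2, an inhibitor of thrombin and other serine proteases, had 6.67, 6.19 and 6.23 CPM against 67.6, 95.1 and 60.4 CPM (11.7-fold lower, log2 fold change -3.54 ± 0.33, adjusted p = 0.00157 by edgeR). Pros1, protein S, a cofactor that restrains coagulation, had 19.9, 21.2 and 19.9 CPM against 74.8, 78.9 and 82.8 CPM (3.88-fold lower, adjusted p = 0.0172 by edgeR). In each of the 3 genes the strains lay far apart and AS was close to A2 and I, which a choice by calls with AS included favours. These 3 of the 21 coagulation genes tested fell by edgeR with all 6 mice and none rose, where 0.199% of all genes fell. The list holds genes that the study had already reported lower in 3xTg-AD blood (F2rl2, Serpine2, Pros1, Cd9 and Hpse). Its counts, here and in the other fits, are therefore no independent result. The median log2 fold change of the list was -1.12, against 0.01 over all 15544 genes, and 16 of the 21 values were negative. Without AS, 7 of the 21 fell (2.65% of all genes did), and with all 6 mice 7 fell by DESeq2 (1.90% of all genes) and 7 by voom (1.28% of all genes).

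The 20 platelet genes had the same sign throughout, but none was called by edgeR with all 6 mice. Pf4 and Mpig6b of this list were among the genes that the study had already reported lower in 3xTg-AD blood. All 20 log2 fold changes were negative, with a median of -1.56, while 7695 of all 15544 were negative. The levels of 15 of the 20 were lower in each 3xTg-AD mouse than in each C57BL/6 mouse, and over all genes 8.39% were so (10.8% in the other direction). Summed over the list, the 3xTg-AD mice had 6229, 7294 and 5262 CPM and the C57BL/6 mice 20008, 17822 and 13505 CPM. Ppbp, the platelet basic protein precursor, had 800, 1001 and 755 CPM against 6166, 5619 and 2630 CPM (adjusted p = 0.0606), and Gp1ba, of the von Willebrand factor receptor, 8.83 to 14.2 against 35.0 to 41.7 CPM (adjusted p = 0.0665 by edgeR). Tubb1, the platelet tubulin, was nearly unread (at most 22 reads). At an unadjusted p under 0.05, 17 of the 20 differed (12.3% of all genes), and 11 fell by DESeq2 (1.90% of all genes) and 11 by voom with sample weights (1.28%). Without AS, 12 of the 20 fell (median log2 fold change -1.63), among 2.65% of all genes. At 6 months, in other mice, 3 of the 20 fell (Ppbp, Gp9 and Mpig6b, median of the list -0.67), among the 495 of 15612 genes (3.17%) that fell. Whether 3xTg-AD blood held fewer platelets or less RNA per platelet cannot be told apart in bulk RNA.

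**Figure D2:**
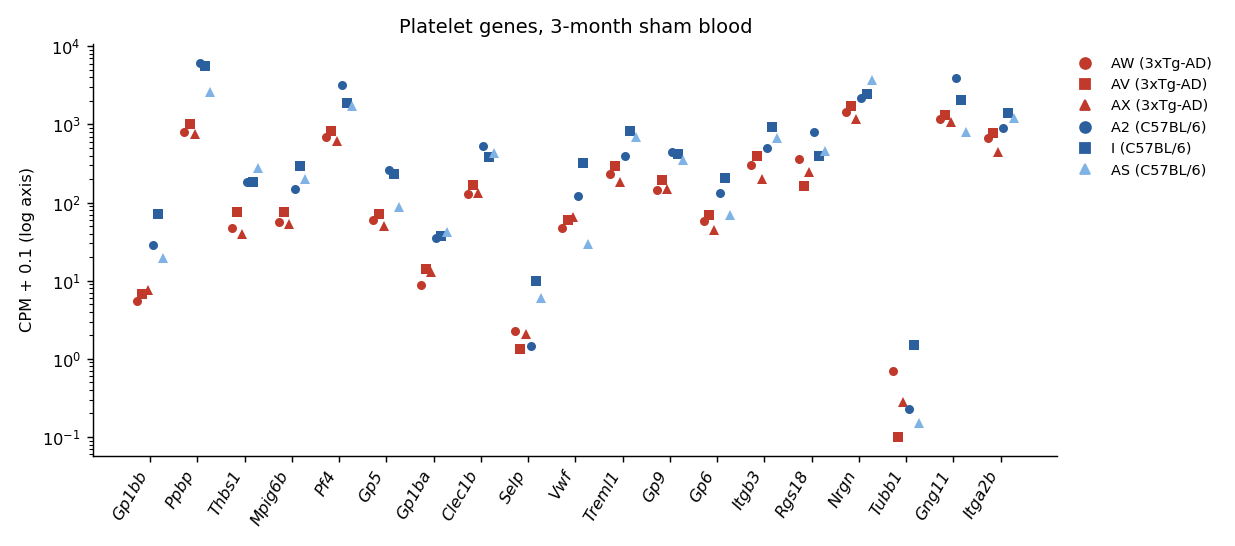
Levels of 19 of the 20 platelet genes in each of the 6 libraries, in CPM after adding 0.1 on a log axis, ordered by log2 fold change, with 3xTg-AD mice in red and C57BL/6 mice in blue. The red points lie below the blue ones in 14 of the 19 genes, and none of them passed the test with all 6 mice.

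Several other genes that fell act at membranes and in the cytoskeleton. Tpm4, a tropomyosin of actin filaments, had 50.3, 62.1 and 53.2 CPM in 3xTg-AD blood and 774, 500 and 610 CPM in C57BL/6 blood (11.4-fold lower, log2 fold change -3.51 ± 0.34, adjusted p = 0.00226 by edgeR). It was the only one of 17 tropomyosin and actin genes that edgeR called with all 6 mice, where 0.199% of all genes fell. The median of that list was -0.84. The study had already listed Tpm4 among its top genes of this comparison. DESeq2 called 5 of the 17 lower (1.90% of all genes) and voom 4 (1.28%). Without AS edgeR called 5 lower (Tpm4, Myl9, Myh9, Flna and Parvb), where 2.65% of all genes fell. There 15 of the 17 values were negative, with a median of -1.10. Cd151 (4.56-fold lower) and Tspan17 (8.13-fold lower) are tetraspanins, Cavin1 (6.75-fold lower) is a coat protein of caveolae, and Csrp1 (4.89-fold lower) is a LIM-domain protein. Cd151 had 27.6, 44.9 and 28.4 CPM against 154, 156 and 151 CPM. Slc18a2, the vesicular monoamine transporter that loads secretory granules, had 1.58 to 2.64 CPM against 8.80 to 15.8 CPM (6.31-fold lower).

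Enzymes made up another group. Idua, the lysosomal alpha-L-iduronidase, had 0.775, 1.07 and 1.56 CPM against 18.9, 23.6 and 19.5 CPM (18.2-fold lower, adjusted p = 0.00191 by edgeR). Acp1, a small tyrosine phosphatase, had 4.95 to 7.26 CPM against 37.9 to 62.7 CPM (8.97-fold lower). Hpgd, which inactivates prostaglandins, had 0.282 to 0.539 CPM against 5.13 to 10.7 CPM (21.3-fold lower). Dut and Rrm2, which supply and guard the pool of deoxynucleotides, were 14.1-fold and 5.94-fold lower. They are the genes that edgeR called with all 6 mice among 17 of DNA replication, whose median was 0.11, where 0.199% of all genes fell. DESeq2 called 2 of the 17 higher and 2 lower, where it called 1.24% of all genes higher and 1.90% lower. Dut was already among the top genes of the study for this comparison. Dut had 3.32 to 4.37 CPM in 3xTg-AD mice and 37.4, 32.1 and 87.1 CPM in A2, I and AS. Usp31, a deubiquitinase, was 6.27-fold lower and Prkcq, the theta isoform of protein kinase C found in T cells and platelets, 3.76-fold lower.

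The rest of the genes that fell had other roles. Ubap1, a subunit of the ESCRT-I sorting complex, had 14.8 to 20.6 CPM against 113 to 160 CPM (7.26-fold lower). Nomo1, a protein of the endoplasmic reticulum, was 6.95-fold lower and Wdfy1, an endosomal adaptor of Toll-like receptor signals, 7.58-fold lower. Klrb1c, which encodes the NK1.1 antigen of natural killer cells in C57BL/6, had 1.29, 1.46 and 1.74 CPM against 6.53, 10.3 and 11.5 CPM (adjusted p = 0.0293 by edgeR). It was the only one of 10 natural killer cell genes that edgeR called with all 6 mice, where 0.199% of all genes fell. The median of this list was -0.76, and 9 of the 10 values were negative. An unadjusted p under 0.05 was found for 3 of the 10 (12.3% of all genes). DESeq2 and voom each called 1 lower (1.90% and 1.28% of all genes). At 6 months edgeR called 4 of the 10 lower (3.17% of all genes). Cxcl5, a neutrophil chemokine that platelets also carry, was 8.01-fold lower. Tmem245 (4.25-fold), Wdr83os (6.51-fold), Lgalsl (5.22-fold), Gm5483 (7.99-fold), Gm10419 (5.55-fold) and Fgfrl1 (39.0-fold) fell as well. Rps15a and Tsen34 have near-identical relatives and are described with them.

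Called genes lay near each other on the chromosomes. Of the 58, 14 (24.1%) had another called gene within 1 Mb, while 7.99% of 15538 tested genes with a position did. The 14 genes formed 6 neighbourhoods, and in each of them the called genes moved in one direction. Higher in 3xTg-AD blood were Klk1b22, Josd2 and 5430431A17Rik within 373 kb (chr7:44112673-44486138), Gdpd3 and Gm17511 within 520 kb (chr7:126766334-127286385), and Cygb and BC018473 within 114 kb (chr11:116645595-116759373). Lower were Gm10419, Idua and Fgfrl1 within 339 kb (chr5:108367769-108706924), Wdfy1 and Serpine2 within 159 kb (chr1:79702262-79861180), and Tpm4 and Cib3 within 77.9 kb (chr8:72134975-72212837). All positions are those of GENCODE M21 on GRCm38. No other gene in these stretches passed the test. In the stretch from Gdpd3 to Gm17511, 28 other genes were tested, and 2 had an unadjusted p under 0.05. In the stretches on chromosomes 5 and 7 the genes that were not called lay on both sides of no change. Of the genes called without AS, 61.2% had another such gene within 1 Mb, against 55.8% of tested genes. With a distance of 0.5 Mb the share was 20.7% against 4.87% of tested genes, and with 5 Mb it was 34.5% against 24.8%.

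**Figure D3:**
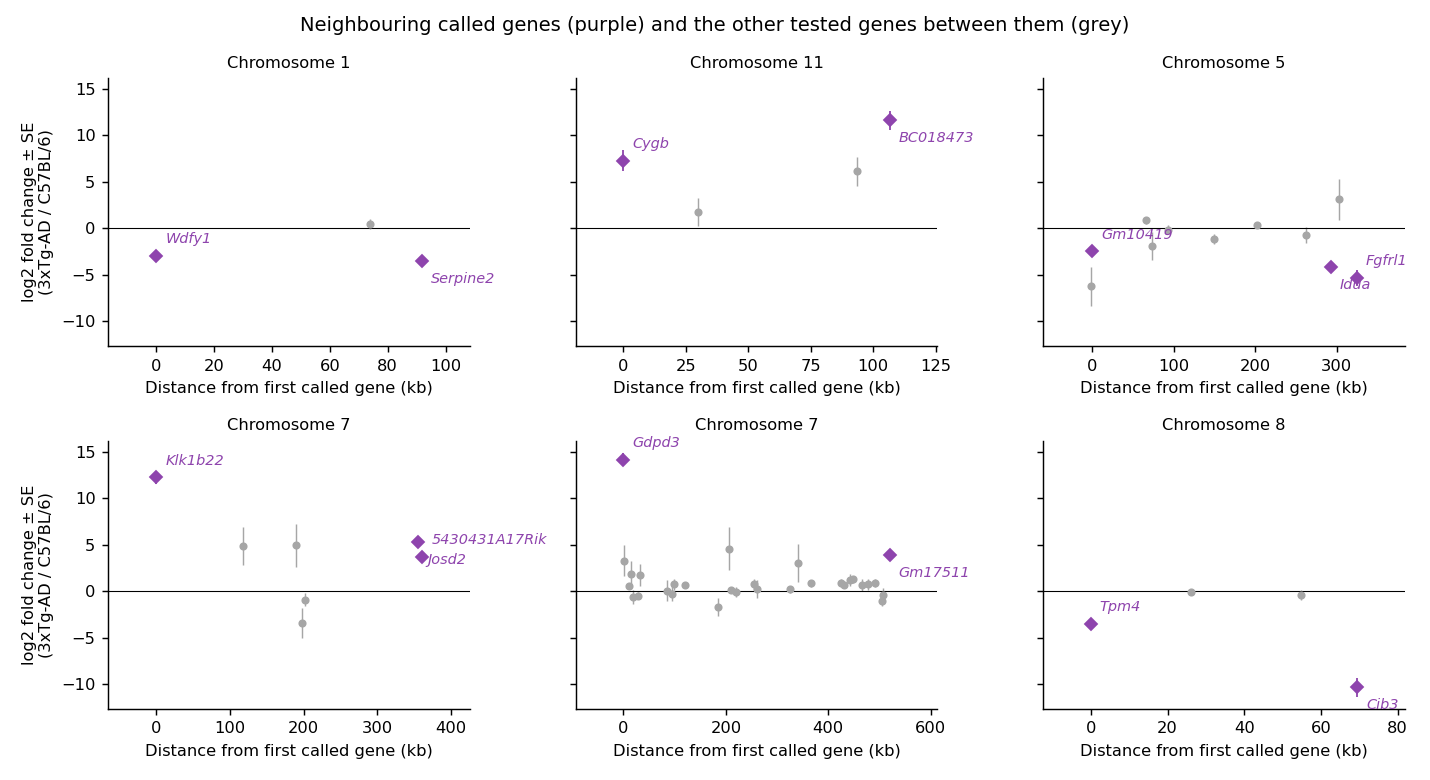
Log2 fold change (3xTg-AD over C57BL/6) with its SE against the distance from the first called gene in kb, for the 6 groups of called genes within 1 Mb of each other. Purple diamonds are the 14 called genes, all on one side of 0 within a panel, and grey points are the other tested genes of the stretch.

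Pseudogenes were 6 of the 27 genes that rose (22.2%) and none of the 31 that fell, and they made up 6.70% of the genes tested. For each of the 58 genes the last 300 bases of its transcripts were searched against all GENCODE transcripts. In 15 genes (10 higher, 5 lower) another gene matched with at least 90% identity over at least 100 bases, and in 12 of them such a gene was in the table. How the counting treated reads that fit several genes is not given in the sources used here, so the levels of these genes are uncertain, and for those with relatives in the table the sums are given.

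Gm11942 is a processed pseudogene of the ribosomal protein gene Rplp1 on chromosome 4. It had 1683, 2900 and 4357 CPM in AW, AV and AX and 6.14, 4.81 and 3.14 CPM in A2, I and AS, a 634-fold difference (log2 fold change 9.32 ± 0.64, SE, adjusted p = 0.00049 by edgeR). Rplp1 itself had 601, 1094 and 1240 CPM in 3xTg-AD blood and 2952, 2070 and 1906 CPM in C57BL/6 blood, a difference that did not pass the test (log2 fold change -1.24, adjusted p = 0.267 by edgeR). Summed over Gm11942, Rplp1 and their 5 other relatives in the table, the mice had 2309, 4037 and 5654 CPM against 3077, 2125 and 1942 CPM. The sums overlapped between the strains, and the log2 ratio of their means was 0.75 in the family against 9.32 for the one gene. The sequences differ at 7 of 260 aligned bases. The windows that hold 5 of these are shown because they are what separates the reads of the genes, with the differing bases in capitals, as GENCODE M21 gives them on GRCm38.
Rplp1, chr9:61913404-61913432, minus strand: tgctgctcCAtccactgcCgcCgccccag
Gm11942, chr4:32965124-32965152, plus strand: tgctgctcTGtccactgcTgcTgccccag
Rplp1, chr9:61913327-61913351, minus strand: tgacatgggcttCggtctttttgac
Gm11942, chr4:32965205-32965229, plus strand: tgacatgggcttTggtctttttgac
Gm17511 and Gm13149, which also rose, belong to the same family and are in its sum. Gm17511 had 124, 128 and 217 reads in 3xTg-AD mice and 7, 10 and 26 reads in C57BL/6 mice.

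Tsen34 and 4930526A20Rik gave a reciprocal pair. Tsen34, a subunit of the tRNA splicing endonuclease on chromosome 7, had 0.689, 0.845 and 0.360 CPM in 3xTg-AD mice and 8.34, 10.6 and 36.9 CPM in A2, I and AS (log2 fold change -4.87 ± 0.69, adjusted p = 0.0172 by edgeR). Its transcribed pseudogene 4930526A20Rik on chromosome 17 had 10.98, 7.66 and 7.25 CPM against 0.453, 0.317 and 0.647 CPM (log2 fold change 4.14 ± 0.49, adjusted p = 0.00712 by edgeR). The sums of both were 11.7, 8.50 and 7.61 CPM against 8.80, 10.9 and 37.6 CPM, so that A2 and I lay within the range of the 3xTg-AD mice and AS did not. The last 300 bases of a Tsen34 transcript differ from the pseudogene at 4 positions, 2 of which stand in this window.
Tsen34, chr7:3700763-3700791, plus strand: tcatctctGcacggaggcttgCgctctcc
4930526A20Rik, chr17:28075330-28075358, minus strand: tcatctctAcacggaggcttgTgctctcc

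Rps15a, a protein of the small ribosomal subunit, had 96.5, 104 and 86.5 CPM in 3xTg-AD blood and 1347, 995 and 457 CPM in C57BL/6 blood (9.75-fold lower, log2 fold change -3.29 ± 0.45, adjusted p = 0.0146 by edgeR). Of the 81 ribosomal protein genes it alone was called by edgeR with all 6 mice, where 0.199% of all genes fell, and their median was -0.10. DESeq2 called 1 of them higher and 3 lower (1.24% and 1.90% of all genes), and voom called 2 lower (1.28%). Without AS edgeR called 2 lower (2.65% of all genes). Its pseudogene Rps15a-ps6 had 185, 190 and 150 CPM against 67.7, 37.0 and 17.999 CPM (adjusted p = 0.112 by edgeR). Summed with 12 relatives, Rps15a had 321, 338 and 302 CPM against 1456, 1055 and 484 CPM. Here the family remained lower in each 3xTg-AD mouse, by 1.64 on the log2 scale of the mean sums, which is less than for the gene alone. Tdpx-ps1 rose 61.4-fold (20.9, 41.7 and 45.9 CPM against 0.517, 1.08 and 0.174 CPM), while Prdx2, a peroxiredoxin of red cells with 98.0% identity to it, had 1061, 1894 and 1699 CPM against 1189, 1479 and 466.2 CPM (adjusted p = 0.677 by edgeR). The sums of both overlapped (1082 to 1936 against 466.3 to 1479.9 CPM, log2 ratio of their means 0.60). Gm10036 rose 40.1-fold (159, 303 and 289 CPM against 7.83, 3.80 and 7.12 CPM), and its sum with 7 relatives, Rpl11 among them, was 324, 322 and 304 CPM against 434, 377 and 417 CPM. For Klrb1c the sum with Klrb1a and Klrb1b was also lower in each 3xTg-AD mouse (1.29 to 2.04 CPM against 7.11 to 13.2 CPM).

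Hist1h2bp, one of the many genes of histone H2B, rose 8.42-fold (16.9, 31.7 and 13.6 CPM against 1.77 to 3.61 CPM, adjusted p = 0.0275 by edgeR). Summed with 9 relatives, among them the abundant Hist1h2bc and the called gene Hist3h2ba, the mice had 516, 681 and 673 CPM against 840.3, 520.0 and 667 CPM. The sums overlapped, and the log2 ratio of their means was -0.12 against a log2 fold change of 3.05 for the gene alone. BC018473 matched 16 genes of the table over part of its 3′ end, and the sum of all 17 was 298 to 317 CPM against 345 to 471 CPM (log2 ratio of the means -0.46), while BC018473 alone was unread in C57BL/6 blood. Gm5483 summed with its one relative was lower in each 3xTg-AD mouse (3.53 to 5.74 CPM against 20.1 to 58.5 CPM), as it was alone.

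**Figure D4:**
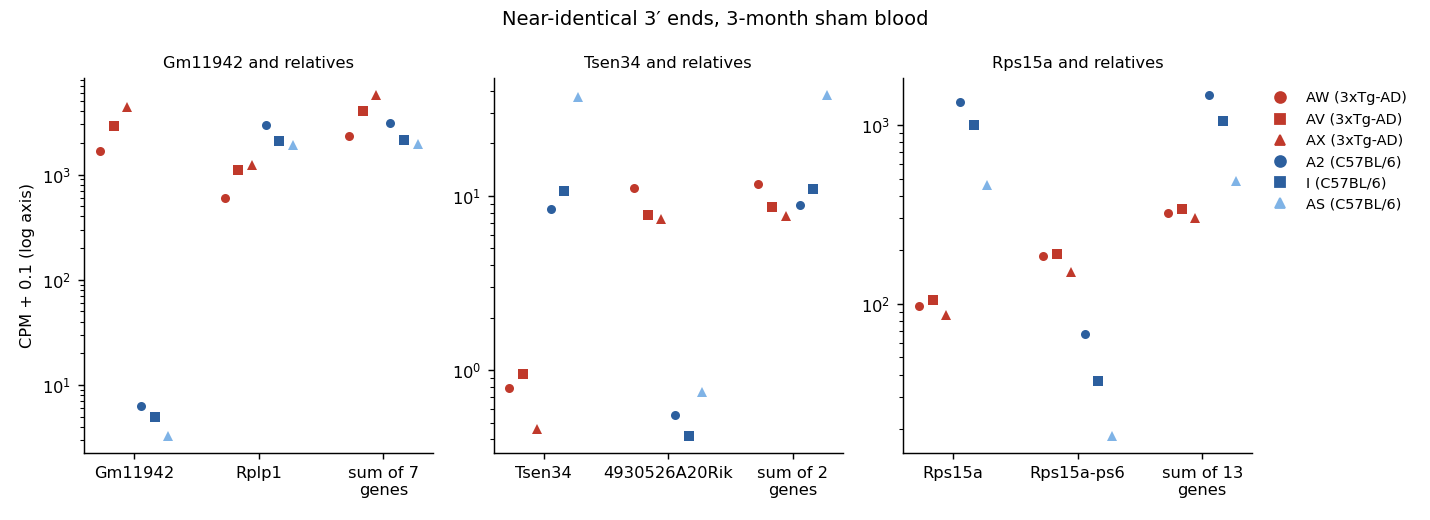
Levels in CPM after adding 0.1, on a log axis, of Gm11942, Tsen34 and Rps15a, of one near-identical relative each, and of the sum over all relatives in the table, in the 6 libraries. The strains lie apart in the single genes and overlap in the sums for Gm11942 and Tsen34, while the Rps15a sum stays lower in the 3xTg-AD mice.

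Of the called genes, 11 also overlap another gene of the table, 10 of them on the opposite strand. Since the strand setting of the counting is not given in the sources used here, their reads cannot be told from those of the partner. No partner was called. The most abundant partner was Mboat7, which overlaps Tsen34 (14.0 CPM in 3xTg-AD and 24.5 CPM in C57BL/6 mice, means of 3).

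Lists of blood cell markers gave few calls. Of 14 neutrophil genes edgeR called Camp alone with all 6 mice (median log2 fold change -0.76), where 0.174% of all genes rose. DESeq2 and voom each called 2 higher and 1 lower, where DESeq2 called 1.24% and voom 0.592% of all genes higher. Without AS edgeR called Camp, Ngp and Ltf higher and Retnlg lower. Ngp, another granule protein, had 76.5, 44.0 and 159 CPM against 3.23, 8.11 and 15.9 CPM (adjusted p = 0.0719 by edgeR), while Retnlg had 143 to 173 CPM against 325 to 392.2 CPM (adjusted p = 0.161). Genes of this list thus had both signs. At 6 months 7 of the 14 rose, and 9 of 15 erythroid genes did, where 4.73% of all genes rose. At 3 months none of the 15 erythroid genes was called (median 0.33), and Sptb, which encodes a spectrin of the red cell skeleton, had 217 to 289 against 62.7 to 97.3 CPM (adjusted p = 0.0643 by edgeR). None of 14 B cell, 12 immunoglobulin, 15 T cell, 12 monocyte or 11 eosinophil and basophil genes was called. Their medians were 0.08, 0.54, -0.16, 0.66 and -0.21, and without AS they were 0.07, 0.71, -0.03, 0.56 and 0.44, so that the eosinophil and basophil median changed sign. Among them Cx3cr1, the fractalkine receptor of monocytes, had 42.6 to 70.5 against 9.31 to 19.3 CPM (adjusted p = 0.0775 by edgeR), and Prg2, the eosinophil major basic protein, 10.4 to 20.5 against 0.398 to 2.46 CPM (adjusted p = 0.0513 by edgeR). None of 16 genes of the natural killer receptor cluster was called, though 15 had negative values (median -2.17). These were low in both strains. Klrc1, an inhibitory receptor, had 25 to 43 reads in 3xTg-AD mice and 64 to 325 reads in C57BL/6 mice (adjusted p = 0.156 by edgeR). In the lists of this paragraph without a call by edgeR, the unadjusted p was under 0.05 for 3 erythroid, 2 B cell, 2 immunoglobulin, 2 T cell, 2 monocyte, 1 eosinophil and basophil and 9 receptor cluster genes, and DESeq2 called 2, 0, 0, 0, 1, 1 and 4 of them. Of all genes, 12.3% were under 0.05, and DESeq2 called 1.24% higher and 1.90% lower. Without AS edgeR called 2 erythroid (Alas2 and Sptb), 1 immunoglobulin, 1 monocyte and 1 eosinophil gene (Prg2) higher and 1 T cell and 1 receptor cluster gene lower, where 1.58% of all genes rose and 2.65% fell.

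None of 9 haemoglobin genes (median 1.35, 2 with an unadjusted p under 0.05) and none of 7 mitochondrially encoded genes (median -0.25, 0 under 0.05) was called by edgeR, DESeq2 or voom.

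Genes of cells that do not belong to blood were uneven between single mice. The 16 keratinocyte genes summed to 378 CPM in AV, 54.5 and 51.5 CPM in AW and AX, 14.2 and 17.2 CPM in A2 and I, and 121 CPM in AS. Skeletal muscle genes (7 tested) summed to 104 CPM in AW and to 2.22 to 19.3 CPM in the other mice. With all 6 mice no gene of these lists was called by edgeR, DESeq2 or voom (2 keratinocyte genes and 1 muscle gene had an unadjusted p under 0.05), their medians were 2.34 and 2.52 (4.22 and 2.07 without AS, where Krt15 was called higher), and their part in the strain differences was not tested.

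Lists of activation and defence genes gave no call by edgeR with all 6 mice, and several of their genes were highest in AS. None of 12 immediate early, 12 stress and glucocorticoid, 20 interferon or 16 inflammatory cytokine genes was called by edgeR, with medians of -0.90, -0.44, -0.68 and -0.94. Without AS the medians were 0.18, -0.22, -0.67 and -0.38, so that the immediate early median changed sign. There edgeR called 2 immediate early genes (Fos and Dusp1), 2 stress genes and 1 interferon gene lower, and of the cytokine genes Tnf and Il17ra higher and Il1b lower. Of all genes, 1.58% rose and 2.65% fell without AS. Il1b, which encodes interleukin-1 beta, had 46.3 to 48.0 CPM in the 3xTg-AD mice, 134 and 145.9 CPM in A2 and I and 329 CPM in AS (adjusted p = 0.0705 by edgeR). Oasl2, an interferon-induced gene, had 0.419 to 2.41 CPM against 14.3, 16.6 and 63.8 CPM (adjusted p = 0.0558 by edgeR), and Ddit4, induced by stress and glucocorticoids, 2.31 to 3.18 against 10.2, 11.2 and 22.7 CPM (adjusted p = 0.0525 by edgeR). The MHC class I and class II lists (16 and 10 genes) had no call and medians of -0.44 and 0.19, which became 0.32 and 0.71 without AS, where Cd74 of class II was called higher. The study had already listed Fos, Fosb, Junb and Dusp1 of the immediate early genes as lower in 3xTg-AD blood at 3 months. It did so too for Il1b, Il1r2, Osm, Il17ra, Il15 and Peli1 of the cytokine list and Psmb8 of MHC class I. The counts of these lists, here and in the other fits, are therefore no independent result. At an unadjusted p under 0.05, 4 immediate early, 2 stress, 6 interferon, 6 cytokine, 2 MHC class I and 1 MHC class II genes differed, against 12.3% of all genes. In the same order DESeq2 called 2, 2, 2, 1, 0 and 0 genes, all lower, where it called 1.90% of all genes lower. Voom called 1, 2, 1, 1, 0 and 0 genes, all lower, where it called 1.28% of all genes lower. Of 6 genes known to vary between inbred strains, Wdfy1 fell by edgeR and the others did not pass the test, where 0.199% of all genes fell. An unadjusted p under 0.05 was found for 3 of the 6 (12.3% of all genes).

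Of 24 genes of amyloid metabolism and Alzheimer risk none was called by edgeR (median -0.25, 15 of 24 negative). An unadjusted p under 0.05 was found for 8 of the 24 (12.3% of all genes). By DESeq2 3 fell (1.90% of all genes) and by voom 3 (1.28%). Apoe, the lipid carrier, came nearest to a call by edgeR, with 12.4, 13.2 and 12.9 CPM against 80.6, 30.8 and 63.7 CPM (log2 fold change -2.18, adjusted p = 0.0544 by edgeR). The study had already reported Apoe lower in 3xTg-AD blood at both ages, so the counts of this list are no independent result. Cd33, a sialic acid receptor of myeloid cells, had 2.82 to 4.25 against 10.4 to 16.4 CPM (adjusted p = 0.0719 by edgeR), and Clu, the chaperone clusterin that platelets also carry, 174 to 220 against 448 to 847 CPM (adjusted p = 0.0951). Without AS, 3 of the 24 fell (2.65% of all genes did). App and Mapt, the mouse genes that match the human genes named above, and Thy1, whose promoter drives transgenes of this line, were not called. App had 29.8, 20.6 and 24.1 against 14.6, 13.9 and 24.6 CPM (adjusted p = 0.603 by edgeR), Mapt at most 0.388 CPM and Thy1 26.5 to 36.4 against 22.5 to 55.7 CPM (adjusted p = 0.887). The reads were aligned to the mouse genome, so these values cannot be read as a measure of the human transgenes and do not check the labels. Whether reads of the transgenes were counted under Thy1 or another mouse gene was not tested.

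Leaving out AS added 599 genes that were not called with it, and 485 of the 657 had an unadjusted p under 0.05 with AS. In the 5 with the smallest p in each direction, Dusp1 excepted, AS lay nearer to the 3xTg-AD mice than A2 and I did. A rule that takes genes called only without AS favours those in which AS departs from A2 and I. This order therefore follows largely from the choice and is no separate result about AS. Sae1, a subunit of the SUMO-activating enzyme, had 50.9, 49.0 and 53.9 CPM in the 3xTg-AD mice, 6.34 and 4.88 CPM in A2 and I, and 39.6 CPM in AS. Ear6, an eosinophil ribonuclease, had 6.29 to 7.25 CPM, none in A2 and I and 1.07 CPM in AS. Cbr2, Muc5ac and Smagp had the same order, with 4.66, 2.54 and 8.19 CPM in AS, above A2 and I in each. Of the genes that fell without AS, Hmga2, an architectural chromatin protein, had 5.77 to 9.23 CPM in 3xTg-AD mice, 66.8 and 49.1 CPM in A2 and I, and 5.13 CPM in AS. Esco2, Slc2a6 and A430078G23Rik were likewise low in AS (3.96, 1.82 and 0 CPM). Dusp1, an immediate early phosphatase, was the exception, with 9.71 to 12.8 CPM, 58.1 and 61.1 CPM, and 421 CPM in AS. With 2 C57BL/6 mice these differences rest on the pair A2 and I.

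The same contrast was then read at 6 months, in 5 3xTg-AD and 6 C57BL/6 sham mice with the hippocampal electrode, none of which is among the 6. There 1233 of 15612 genes (7.90%) were called, 738 higher (4.73%) and 495 lower (3.17%). Of the 58 genes, 46 were called again in the same direction (22 of the 27 higher, 24 of the 31 lower), and 55 had the same sign. Of the 657 genes called without AS, 164 (25.0%) were called again in the same direction, 380 had the same sign, and 21 were called in the opposite direction. The fold changes of the 58 were smaller in size at 6 months in 46. Since the 58 were chosen by their values at 3 months, smaller values in other mice are favoured by that choice. The count of 46 is therefore no measure of a change with age, for which the interaction was tested. The genes whose sign was opposite at 6 months, Gm5483, Gm25939 and Chchd10, were not called there. Chchd10, a mitochondrial protein, had a mean of 8.91 ± 0.67 CPM in 3xTg-AD and 2.02 ± 0.25 CPM in C57BL/6 mice (SD, n = 3) at 3 months, and 3.96 ± 1.139 CPM (n = 5) and 6.63 ± 3.504 CPM (n = 6) at 6 months, on library sizes scaled over all 42 mice. The other genes called at 3 but not at 6 months were Tspan17, Usp31, Id3, Cygb, Tmem245, Hspb6, Gm10419, Prkcq and Lgalsl.

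Whether the strain difference itself changed with age was tested as an interaction over the 17 sham mice with the hippocampal electrode. It was called for 6 of 15613 genes (0.0384%), of which Id3 and Cttnbp2 are among the 58. Id3 had 29.2 ± 1.56 CPM in 3xTg-AD and 3.53 ± 1.72 CPM in C57BL/6 mice (SD, n = 3) at 3 months, and 16.8 ± 5.02 (n = 5) and 16.5 ± 5.36 CPM (n = 6) at 6 months. The strains lay apart at 3 months and overlapped at 6 months, and the log2 difference changed by -3.05 (adjusted p = 0.0208 by edgeR). Cttnbp2 had 14.2 ± 2.25 CPM against none at 3 months and 8.72 ± 2.75 against 0.154 ± 0.0808 CPM at 6 months, a change of -5.85 (adjusted p = 0.0464 by edgeR) that rests on a group without reads and therefore on the prior count of the fit. Without any one of AW, AV or AX edgeR called no gene for the interaction (2058, 1997 and 1947 genes had an unadjusted p under 0.05), and without AS it called 320. With all 17 mice DESeq2 called 292 genes.

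**Figure D5:**
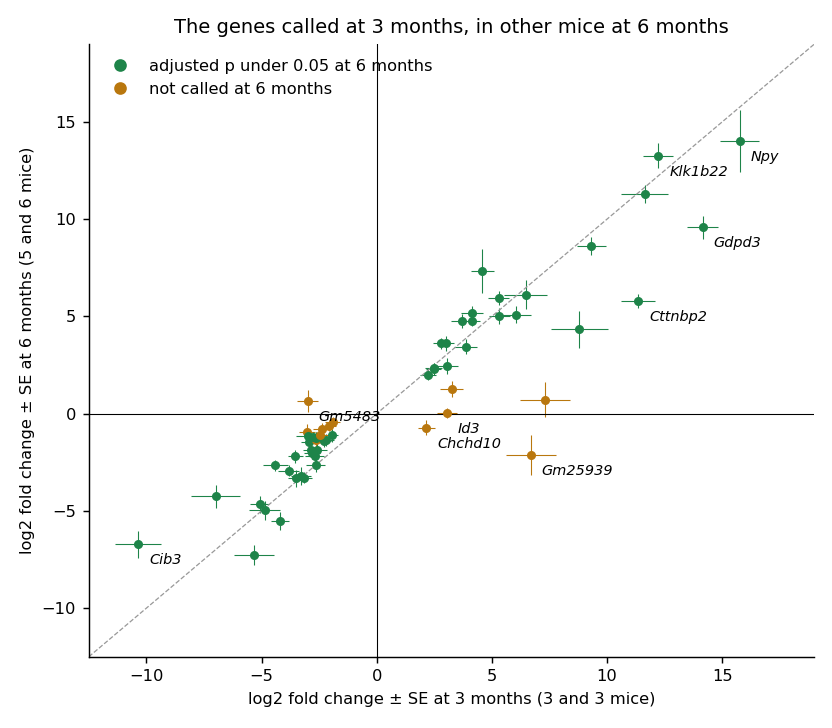
Log2 fold change (3xTg-AD over C57BL/6) with its SE for the 58 genes at 3 months against the same at 6 months, with green points for the 46 called at both ages and the dashed line for equal values. The values of genes with no read in one strain, such as Npy, depend on the prior count of the fit. Id3 sits at 3.05 on the horizontal and 0.03 on the vertical axis.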

How the data were processed

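Whole blood RNA was depleted of alpha and beta globin by the authors and made into 3′ mRNA libraries for an Ion Proton sequencer. The authors trimmed the reads with cutadapt 1.14, merged the runs of each sample, aligned them to mm10 with STAR 2.6 and counted reads per gene. What they deposited are those counts, without normalization, for genes that passed a filter on low counts (15613 genes in 42 mice). The strand setting and the treatment of reads that fit several genes are not given in the sources used here. Of the identifiers, 15607 were found in GENCODE M21 (GRCm38), 14873 of them in the same version.

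Columns were matched to mice by the sample titles. Genes without a read in a comparison's mice were left out, and the rest tested in R 4.3.3 with edgeR 4.0.16 (TMM, glmQLFit, glmQLFTest), without covariates, at a Benjamini-Hochberg adjusted p under 0.05. The RNA integrity number of the study's model is not in the labels used here. SE is the size of the log2 fold change divided by the root of F. Alternatives were DESeq2 1.42.0 (likelihood ratio test, independent filtering at 0.1), RLE factors, filterByExpr, limma 3.58.1 voom with sample weights, haemoglobin genes removed, all 17 hippocampal sham mice or all 42 mice in one fit, other read limits and distances, and fits that left out 1 mouse at a time. Near-identical genes were found with blastn 2.17.0 (last 300 bases of each transcript, at least 90% identity over at least 100 bases). Promoter windows are those of RefSeq.

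The text names the 15 called genes of smallest p on either side, called genes within 1 Mb of each other, genes read in one strain only, up to 4 members of each of 30 gene lists, the 5 strongest genes by p on either side among those called only without AS, and called genes whose strain difference changed with age or had the opposite sign at 6 months. Other called genes are named for completeness. Genes not named for these reasons (relatives, overlapping genes, further platelet genes) were chosen after their values were seen. The comparison, the lists and the rule were chosen with earlier results of these data known. Some genes and alleles are not reported here.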

Additional observations from a re-analysis of the deposited data

Results flagged for a closer look

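The strain difference of Id3 changed between 3 and 6 months by -3.05 on the log2 scale (adjusted p = 0.0208 by edgeR) and that of Cttnbp2 by -5.85 (adjusted p = 0.0464 by edgeR). Neither was called when AW, AV or AX was left out.

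For the 11 genes read in one strain only, the groups of 4 to 10 mice of that strain at 6 months were searched for a mouse far from the others. One mouse with hippocampal tDCS had 42.9 CPM of Cttnbp2, where the median of the 8 mice was 9.76 CPM and the lowest 4.87 CPM. One mouse with prefrontal tDCS had 1503 CPM of Npy (median of 6 mice 734 CPM, lowest 382 CPM). One mouse with prefrontal sham had 1.97 CPM of Cxcl14 (median of 4 mice 0.0313 CPM, lowest 0). Of 40 groups tested 3 held such a mouse, and chance alone gives about 1 in 20.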

How the results depend on the processing

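With all 6 mice the count of called genes was 58 with edgeR, 488 with DESeq2, 291 with voom and sample weights, 286 with 17 mice in one fit and 361 with 42 mice, and 18 (without AW) to 657 (without AS) with one mouse left out. RLE factors, filterByExpr and removal of haemoglobin genes gave 56, 63 and 69. Of the 58, all were called again by DESeq2, 56 by voom and 57 in either larger fit, and none changed sign in any alternative. Without AS, DESeq2 called 1522 genes. The count at 6 months ran from 781 to 1272 with one mouse left out. The interaction called 6 genes with edgeR, 292 with DESeq2, 68 with voom, and 0 to 320 with one mouse left out, where 0 was found without AW, AV or AX and 320 without AS. Genes read in one strain only numbered 42 at limits of 1 and 10 reads and 6 at limits of 10 and 100 reads, and 14 to 36 with one mouse left out. Called genes near another one were 14, and 402 among the genes called without AS. The log2 fold change of Thy1, -0.22 with all mice, was 0.16 with voom and -0.45 to 0.27 with one mouse left out. With voom the median of all genes was 0.12 (0.01 in the main analysis), so changes there are relative to that shift. The causes of these differences were not tested. No paired analysis was possible because the mice carry letters and no replicate numbers in the labels, and the numbers used here follow accession order. With 3 mice against 3, an exact permutation test of a single gene cannot go below 0.1, so none was used.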

Other observations

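The 3xTg-AD mice AM (6 months, tDCS, hippocampal electrode) and AQ (6 months, sham, hippocampal electrode) had 3 and 0 reads of Npy. Both had reads of other genes that were read in 3xTg-AD blood only at 3 months. Klk1b22 had 666 and 1746 reads, Gdpd3 1105 and 3075 reads, BC018473 261 and 455 reads, and Cttnbp2 222 and 286 reads in AM and AQ. The other 4 hippocampal sham 3xTg-AD mice of 6 months had 304, 381, 169 and 387 CPM of Npy.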
